A study of Neurospora crassa with 11 samples.

Results

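The Neurospora crassa strain that carries the A828V allele of xlr-1 was compared between medium without carbon and medium with sucrose. Its members were all gene counts of the 4 libraries whose titles name this strain, out of 11 libraries in the series. They were 3 libraries without carbon (numbered 1, 2 and 3) and 1 library on sucrose. Each count table listed 9758 genes, and 8557 of them passed the filter on low counts and were tested. Total RNA came from whole fungus after 16 h of growth on sucrose, a wash and a move to fresh Vogel's medium, a defined salt medium, with no carbon source or with sucrose. The labels state no time between the move and the harvest in words, and they do not say that libraries came from separate cultures. Both groups had the same labelled genotype, in the OR74A (FGSC2489) background. The strain's own xlr-1 was deleted (deltaxlr-1::HygR), a copy with the A828V change was inserted at his-3 under control of the ccg-1 promoter (his-3::p_ccg1::xlr-1-A828V), and the mating type was given as mat a. The other 7 libraries, wild type and the xlr-1 deletion on xylan, entered the estimate of the spread, the filter on low counts and the scaling factors.

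XLR-1 is a zinc cluster transcription factor that switches on genes for the breakdown of xylan, a plant cell wall polymer built from xylose, and for the use of the sugars set free. Sugars such as sucrose repress many of these genes through carbon catabolite repression, in which the repressor CRE-1 takes part. Ribosomal proteins, membrane lipids and amino acids are made in large amounts by growing fungi, and fungi grow little without a carbon source. The ccg-1 gene, whose promoter drove the allele, is a clock-controlled gene also known as glucose-repressible gene 1.

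The libraries without carbon held 13937020 to 18507550 counts on genes and the sucrose library 14119872. Levels below are CPM, counts scaled to a common library total after adjustment by TMM factors, which were 1.13 to 1.172 without carbon and 0.8056 on sucrose. On log2 CPM, pairs of libraries without carbon correlated at 0.986 to 0.993, and each of them correlated with the sucrose library at 0.82 to 0.84. Among genes of at least 10 CPM the median coefficient of variation over the 3 libraries was 10%. Library 2 lay nearest to sucrose in 654 of the 894 genes called lower without carbon (73.2%), against 110 genes for library 1 and 130 for library 3. The 10 genes with most counts held 9.05% to 10.4% of the counts without carbon and 14% on sucrose.

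Of the genes whose promoter, locus or coding part the transgene used, ccg-1 rose, his-3 fell and xlr-1 itself was not called. xlr-1 (NCU06971; chromosome IV, 4706112 to 4709560), which could be read only from the A828V allele, had 109, 129 and 115 CPM without carbon, against 199 CPM on sucrose. All 3 libraries without carbon were below the sucrose library, and the difference missed the threshold (log2 fold change -0.76, SE 0.52, edgeR adjusted p = 0.326). Its size moved with the scaling, to -0.25 with library size alone and -0.32 with limma on log2(FPKM + 1). With the 4 A828V libraries alone it was -0.79 and was called lower. The ccg-1 gene itself (NCU03753) had 16614, 12499 and 17350 CPM without carbon, against 683 CPM on sucrose. It rose 22.7-fold (log2 fold change 4.50, SE 0.78, edgeR adjusted p = 0.00552). In the fit of all 11 libraries the gene that lent its promoter thus rose while the xlr-1 level was not called in either direction. his-3 (NCU03139), the insertion locus and a histidine synthesis gene, fell to 101, 89.1 and 103 CPM without carbon, against 412 CPM on sucrose (log2 fold change -2.08, SE 0.40, edgeR adjusted p = 0.00799). Against the label mat a, reads were counted on matA-1 (NCU01958), a gene of the opposite mating type, namely 143, 130 and 107 reads in the libraries without carbon, against 12 in the one on sucrose. Scaled, these came to 7.18, 6.22 and 6.70 CPM without carbon and 1.06 CPM on sucrose, and the call (log2 fold change 2.66, edgeR adjusted p = 0.0422) ended in at least 1 fit that left out a library (adjusted p up to 0.105). The other mating type A genes were near 0: matA-2 had 6 and matA-3 had 13 counts over the 3 libraries without carbon, and both had 0 on sucrose. Whether both media were inoculated with the same isolate was not tested.

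Of the 8557 genes, 718 were higher without carbon and 894 lower at an edgeR adjusted p under 0.05, which is 8.39% and 10.4% of the genes tested, or 18.8% together. Of the calls, 477 higher and 475 lower ones were at least 4-fold, and 85 higher and 21 lower ones at least 32-fold. The genes called higher were the less well known ones: 420 of the 718 (58.5%) had neither a symbol nor a product name beyond hypothetical, against 221 of the 894 called lower (24.7%) and 47.6% of all genes tested. For 7581 genes (88.6%) the sucrose library lay outside the range of the 3 libraries without carbon, below it for 47.3% of genes and above it for 41.3%, so a lack of overlap was the common case. The test takes the lone sucrose library to vary like the other groups. Leaving out library 1, 2 or 3 without carbon kept the folds, with a median move of 0.05 to 0.07 on the log2 scale, but reduced the calls to 317, 387 and 304 higher and 409, 541 and 418 lower. In all 10 fits that left out 1 library, 690 calls (292 higher, 398 lower) held. With library size alone in place of TMM the median of all genes moved by 0.51, to 0.62 against 0.11 with TMM, and the split became 1115 higher and 449 lower (71.3% higher, against 44.5%). With limma on log2(FPKM + 1), where FPKM are fragments scaled by transcript length and library size, it was 1425 higher and 428 lower (76.9% higher). No call changed its sign with library size alone, so every call named below as a fall was also below 0 on that scale.

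**Figure D1:**
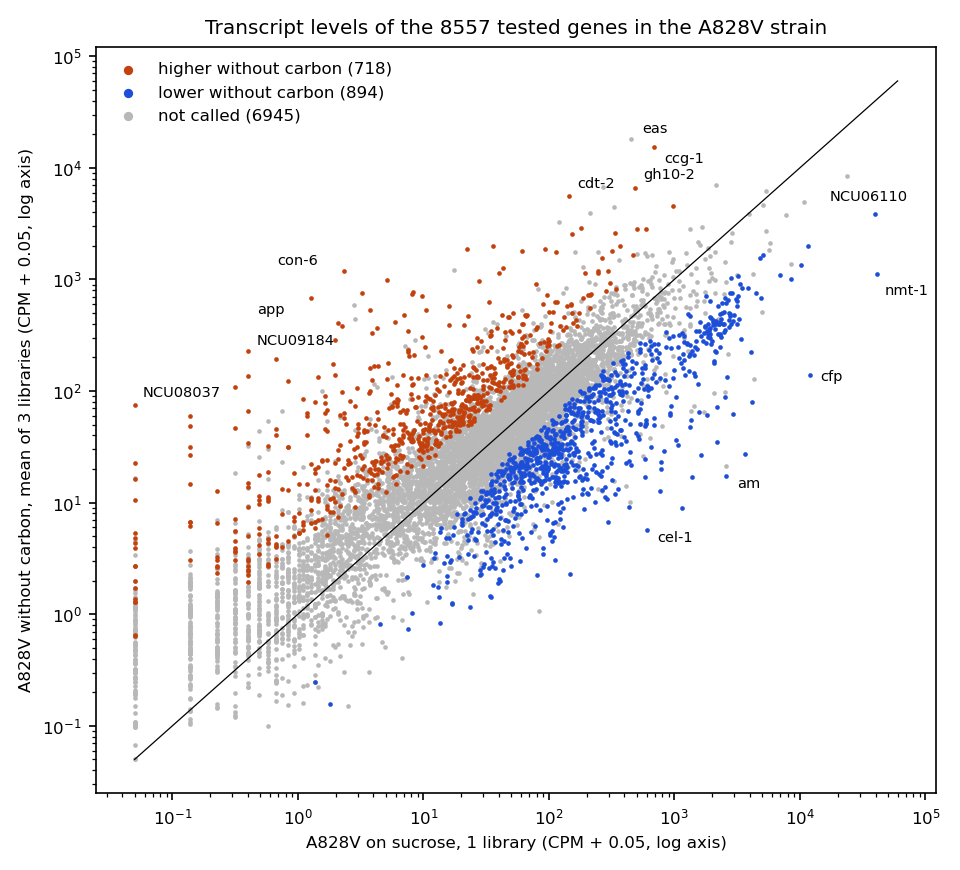
Each point is 1 of the 8557 tested genes, with its mean CPM over the 3 A828V libraries without carbon (vertical, log axis) against its CPM in the 1 sucrose library (horizontal, log axis); 0.05 was added to each value and the line marks equal levels. The 718 genes called higher lie above the line and the 894 called lower lie below it, from nmt-1 at the high end to cel-1.

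Sorted into 33 lists by product name or symbol, the lists for growth held mostly falls, and those for sugar uptake and xylan breakdown mostly rises among their calls. Cytosolic ribosomal protein genes were called lower in 72 of 79 cases, amino acid synthesis genes in 43 of 57, mitochondrial ribosomal protein genes in 14 of 18 and ergosterol genes in 11 of 16, against 10.4% of all genes. Sugar transporter genes were called higher in 12 of 24 cases, cytochrome P450 genes in 6 of 16 and xylan degradation genes in 7 of 25, against 8.39% of all genes. In the pentose and pentose phosphate list of 12 genes and in the secondary metabolism list of 8 genes, edgeR called none. At an unadjusted p under 0.05 these lists had 2 and 1 genes, and DESeq2 called 1 lower in the pentose list and 0 in the other. limma on FPKM went the other way, with 2 called higher in the pentose list and 1 in the other.

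Counts of several lists moved with the scaling. In the lists with many falls, those of cytosolic ribosomal proteins numbered 65 with library size alone and 64 with limma on FPKM, and those of amino acid synthesis 32 and 31. Falls of the respiratory chain numbered 7 and 5 on these scales, those of mitochondrial ribosomal proteins 9 and 7, of ribosome assembly 7 and 5, of aminoacyl-tRNA synthetases 5 and 4, and of translation factors 4 and 2. Smaller shares of these last 5 lists were thus called lower on either scale than with TMM. Falls of histone and replication genes numbered 3 and 3, of chaperone genes 5 and 5, and of cell wall genes 9 and 8. Glycolysis and fermentation had 5 rises and 7 falls with library size alone and 6 and 4 with limma on FPKM. Transcription factors had 24 rises and 2 falls with library size alone and 30 and 3 with limma on FPKM. Rises were more numerous on these scales for xylan degradation (10 and 12), autophagy (3 and 4) and light and clock genes (6 and 7).

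**Figure D2:**
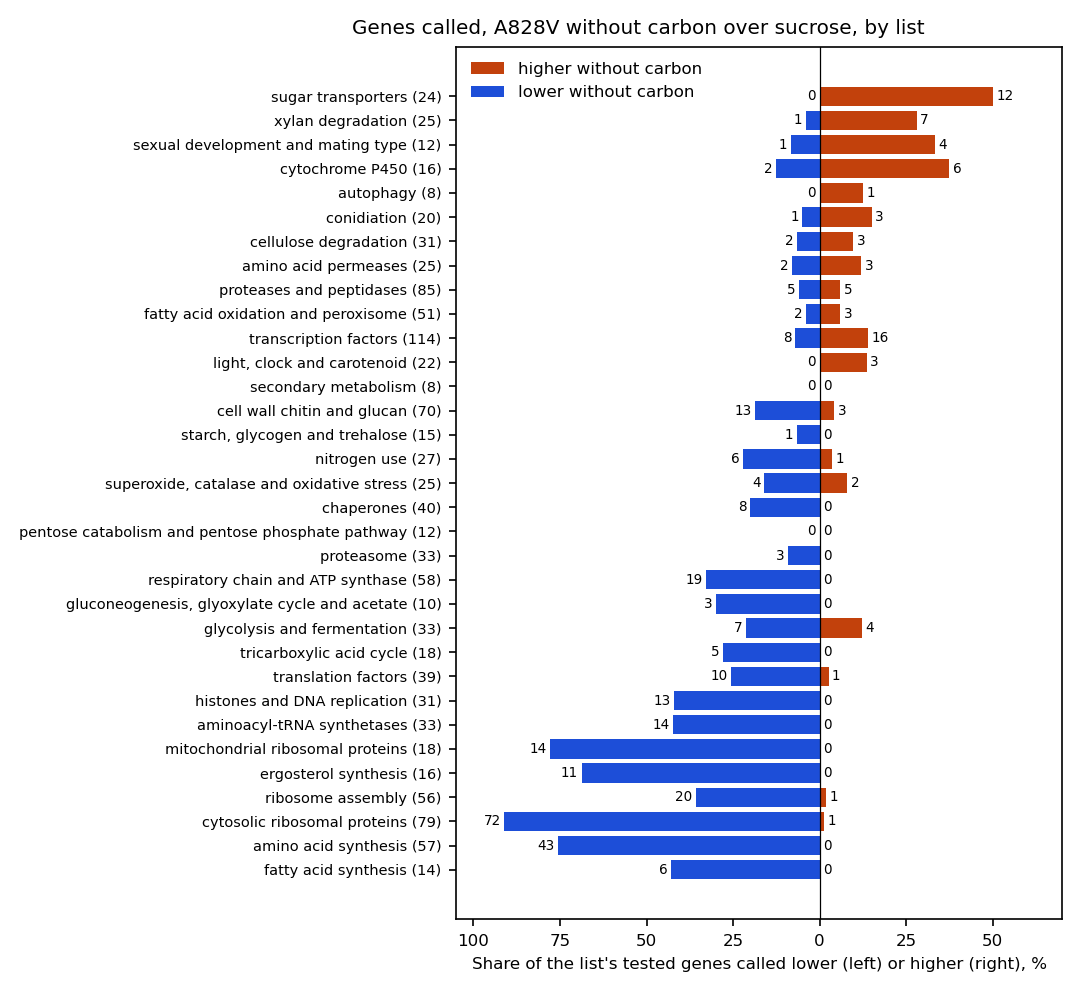
Bars give the share of each list's tested genes (number in brackets) that were called higher without carbon (right) or lower (left) in the A828V strain, with the number of genes called at each bar's end. Lists are ordered by their median log2 fold change, from sugar transporters at the top to fatty acid synthesis at the bottom.

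Genes for xylan breakdown lay mostly above their sucrose level although neither medium was given xylan, with 22 of 25 log2 fold changes above 0. Of the 25, 7 rose, 1 fell and 17 were not called, with a median log2 fold change of 2.17, against 0.11 over all genes. The endoxylanase gene gh10-2 (NCU08189), whose enzyme cuts the xylan backbone, had 6049, 6806 and 6982 CPM without carbon, against 484 CPM on sucrose. It rose 13.6-fold, and its 3 libraries lay close together. The acetylxylan esterase gene NCU05159, for removal of acetyl groups from the chain, had 1059, 1058 and 1310 CPM without carbon, against 39.7 CPM on sucrose (log2 fold change 4.84, SE 1.03, edgeR adjusted p = 0.0115). The arabinofuranosidase gene NCU09170, for side chain removal, had 206, 217 and 250 CPM without carbon, against 7.47 CPM on sucrose (log2 fold change 4.91, SE 1.0, edgeR adjusted p = 0.00994). Among the list's calls, the beta-xylosidase genes gh3-8 and gh3-7, whose enzymes release xylose from short chains, rose by 4.05 and 4.84 on the log2 scale. The feruloyl esterase gene NCU09491 had the largest fold of the list's calls, with 29.8, 38.8 and 51.2 CPM without carbon against 0.615 CPM on sucrose, or 64.9-fold. The second large endoxylanase gene, gh11-2 (NCU07225), had 4251, 3834 and 5198 CPM without carbon, against 330 CPM on sucrose, but its log2 fold change of 3.75 had an SE of 1.45 and missed the threshold (edgeR adjusted p = 0.0984).

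The xylan gene called lower encodes a debranching enzyme. The alpha-glucuronidase gene NCU07351, for removal of glucuronic acid side groups, had 18.2, 30.0 and 22 CPM without carbon, against 438 CPM on sucrose. Its fall of 4.23 on the log2 scale was called (edgeR adjusted p = 0.0475), though not in every fit that left out a library (adjusted p up to 0.134). The same held for the rise of the alpha-xylosidase gene NCU04885 (log2 fold change 2.17, edgeR adjusted p = 0.0233, up to 0.0594). NCU04885 entered the list by its product name, and whether its enzyme acts on xylan was not tested.

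The enzymes that carry xylose into central metabolism were not called by edgeR with TMM. The xylose reductase gene xr (NCU08384), for the first step of xylose use, had 4869, 4623 and 5362 CPM without carbon, against 10828 CPM on sucrose. It stood higher on sucrose than in all 3 libraries without carbon, by a difference that missed the threshold (log2 fold change -1.13, SE 0.50, edgeR adjusted p = 0.139). The xylitol dehydrogenase gene NCU00891, for the next step, had 2961, 2723 and 2740 CPM without carbon, against 1335 CPM on sucrose (log2 fold change 1.07, SE 0.51, edgeR adjusted p = 0.165). xyk-1 (NCU11353), for xylulose kinase, had 1446, 1210 and 1331 CPM without carbon, against 708 CPM on sucrose (log2 fold change 0.91, SE 0.60, edgeR adjusted p = 0.307). With limma on FPKM, NCU00891 (log2 fold change 1.75, adjusted p = 0.0134) and xyk-1 (1.41, adjusted p = 0.049) were called higher. All 3 steps were well read in both media, and the list of 12 genes had a median log2 fold change of -0.58, which was 0.10 with limma on FPKM. Among arabinofuranosidase genes, NCU02343 had the most counts, with 7034, 6175 and 7728 CPM without carbon, against 2159.5 CPM on sucrose, and missed the threshold (log2 fold change 1.69, SE 0.60, edgeR adjusted p = 0.0752). The wild type on sucrose was not analysed here, so the part of the allele and the part of the medium in these levels cannot be told apart.

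Of 31 cellulose genes tested, 3 rose, 2 fell and 26 were not called, with a median log2 fold change of 0.76. These shares are near the 8.39% and 10.4% of all genes, and with limma on FPKM 9 were called higher and 1 lower. gh61-6 (NCU03328), labelled an endoglucanase, rose to 63.8, 74.9 and 55.9 CPM without carbon, against 13.4 CPM on sucrose. The cellobiose dehydrogenase gene cdh-2 (NCU05923) had 344 counts over the 3 libraries without carbon and 1 on sucrose, a depth-scaled ratio of 68.9 with an exact 95% interval of 12.3 to 2728 that covers counting error only. The beta-glucosidase gene gh3-3, whose enzyme frees glucose from cellobiose, rose 34.0-fold, to 177 ± 20.6 CPM (SD, n = 3) without carbon, against 5.19 CPM on sucrose. The endoglucanase gene NCU05404 fell to 659, 842 and 428 CPM without carbon, against 3139 CPM on sucrose. The calls of gh3-3 and of the other faller, NCU07974, ended in at least 1 fit that left out a library (adjusted p up to 0.0827 and 0.123).

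**Figure D3:**
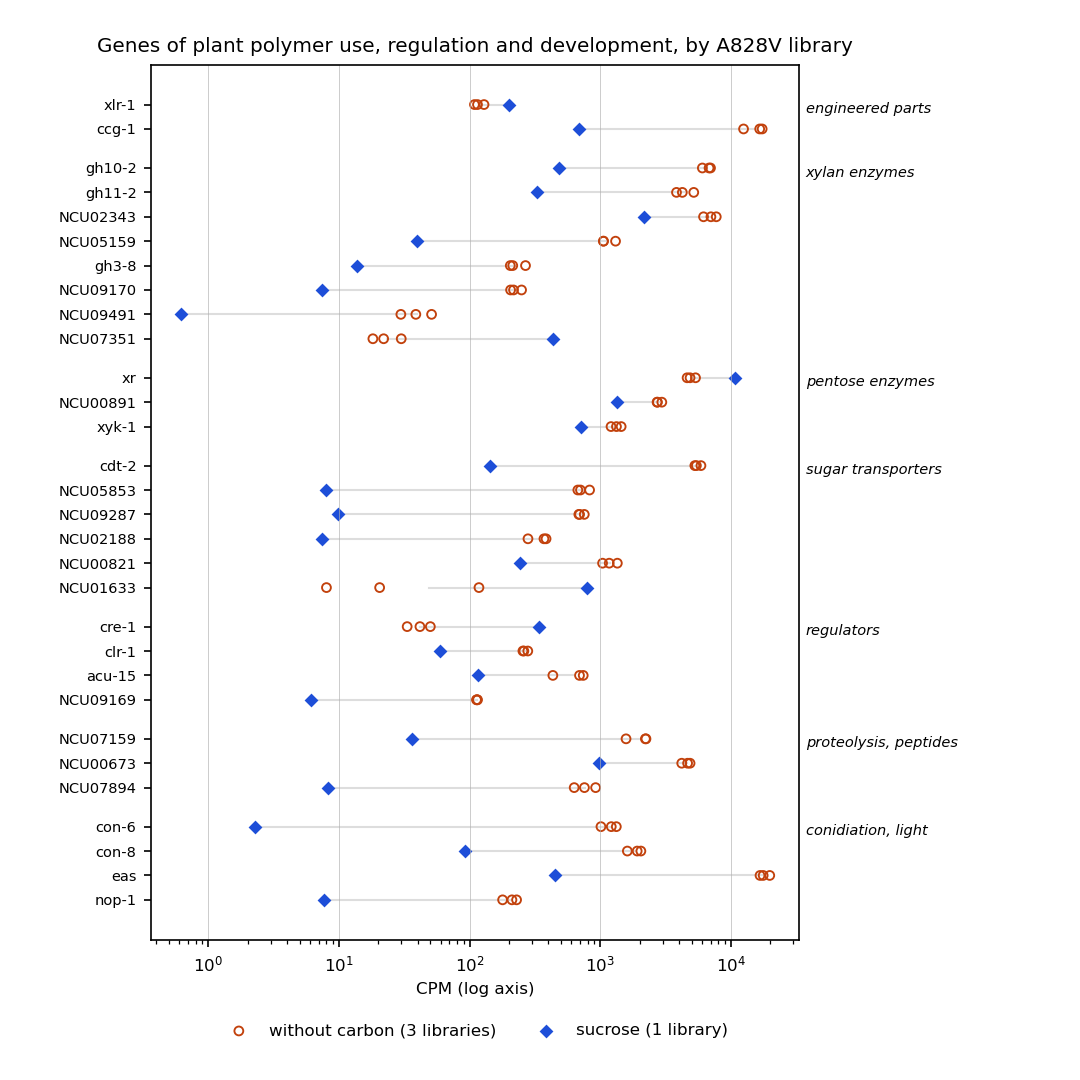
CPM (log axis) of genes for plant polymer use, regulation and development in each A828V library, with open circles for the 3 libraries without carbon and filled diamonds for the 1 sucrose library; grey lines join the mean without carbon to sucrose. Most of the xylan enzymes and sugar transporters shown lie to the right without carbon, whereas the alpha-glucuronidase gene NCU07351, xr and cre-1 lie to the left.

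Sugar transporter genes had the largest share of rises of the 33 lists: 12 of 24 tested were higher and none lower, with a median log2 fold change of 2.21. cdt-2 (NCU08114), a transporter for cellodextrins and short xylan chains, had 5298, 5444 and 5900 CPM without carbon, against 144 CPM on sucrose. It rose 38.6-fold (log2 fold change 5.27, SE 0.98, edgeR adjusted p = 0.0067), and its 3 libraries differed little. NCU05853 and NCU09287, both named sugar transporters, rose 92.1-fold and 72.9-fold, to 737 ± 81.6 and 712 ± 37.4 CPM (SD, n = 3) without carbon, against 8.0 and 9.76 CPM on sucrose. NCU02188 (46.2-fold) and NCU01132 (39.7-fold) rose over low sucrose levels of 7.47 and 1.58 CPM. The high affinity glucose transporter gene NCU08152 was read 6014 times in the 3 libraries without carbon, against 3 times on sucrose, a depth-scaled ratio of 401 with an exact 95% interval of 137 to 1947. The quinate transporter gene NCU00988, which the list does not hold, rose to 471, 500 and 462 CPM without carbon against 6.95 CPM on sucrose (log2 fold change 6.10, SE 0.52, edgeR adjusted p = 0.000734).

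Other transporters were not called. NCU01633, named a hexose transporter, had 8.03, 118 and 20.5 CPM without carbon, against 792 CPM on sucrose. Its 3 libraries spread more than 10-fold, with library 2 nearest to sucrose, and the log2 fold change of -4.02 missed the threshold (SE 1.89, edgeR adjusted p = 0.162). The cellodextrin transporter gene cdt-1 (log2 fold change 1.43, adjusted p = 0.403 by edgeR) and the glucose transporter gene hgt-1 (1.28, adjusted p = 0.316) were not called, nor was the sucrose transporter gene NCU00450, with 511, 485 and 507 CPM without carbon against 152 CPM on sucrose (edgeR adjusted p = 0.106). NCU00450 was called higher with library size alone (adjusted p = 0.0344), with limma on FPKM (0.0165) and with DESeq2 (0.0379). Of the 12 rises, 9 held in all 10 fits that left out a library.

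Among 114 genes named as transcription factors, 16 rose and 8 fell, against 8.39% and 10.4% of all genes. Regulators of carbon use were on both sides. cre-1 (NCU08807), for the carbon catabolite repressor, fell to 41.7, 50.1 and 33.3 CPM without carbon, against 337 CPM on sucrose. The 8.08-fold difference was called (log2 fold change -3.01, SE 0.73, edgeR adjusted p = 0.0197) and ended in at least 1 fit that left out a library (adjusted p up to 0.0712). clr-1 (NCU07705), for an activator of cellulose genes, rose to 279, 260 and 256 CPM without carbon, against 59.9 CPM on sucrose (log2 fold change 2.15, SE 0.47, edgeR adjusted p = 0.0128). Its partner gene clr-2 was low in both media, with 9.05 ± 1.59 CPM (SD, n = 3) without carbon, against 1.93 CPM on sucrose, and was not called (edgeR adjusted p = 0.0807). acu-15 (NCU06656), for the activator of acetate use genes, had 741, 434 and 694 CPM without carbon, against 117 CPM on sucrose, and rose 5.34-fold. NCU09169, named an NmrA family regulator, was steadier than these, with 114, 113 and 115 CPM without carbon, against 6.15 CPM on sucrose (log2 fold change 4.21, SE 0.60, edgeR adjusted p = 0.00305). Whether NCU09169 acts on carbon use was not tested.

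Among the other regulators that fell were some of nitrogen and stress control. cpc-1, for the activator of amino acid synthesis genes, fell to 643 ± 118 CPM (SD, n = 3) without carbon, against 1933 CPM on sucrose. nit-2, for the activator of genes for secondary nitrogen sources, fell to 122, 128 and 136 CPM without carbon, against 296 CPM on sucrose. The calls of both ended in at least 1 fit that left out a library (adjusted p up to 0.126 and 0.0611). NCU01856, named for hac1, the activator of the unfolded protein response in yeast, fell to 281, 313 and 232 CPM without carbon, against 1193 CPM on sucrose (edgeR adjusted p = 0.00877). The list's calls numbered 7, 8 and 7 higher and 2, 5 and 2 lower without library 1, 2 or 3.

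Glycolysis genes that fell without carbon ran from phosphofructokinase to pyruvate decarboxylase. Of 33 genes tested for glycolysis and fermentation, 7 fell, 4 rose and 22 were not called, with a median log2 fold change of -0.87. Of all genes, 10.4% fell and 8.39% rose. emp-6 (NCU02252), for phosphoglycerate mutase, fell to 42.5, 86.5 and 54.1 CPM without carbon, against 1805 CPM on sucrose, or 29.6-fold (log2 fold change -4.89, SE 1.0, edgeR adjusted p = 0.01). The enolase gene emp-7 fell 7.71-fold, to 1333 ± 353 CPM (SD, n = 3) without carbon, against 10283 CPM on sucrose. The triosephosphate isomerase gene NCU07550 (log2 fold change -2.18), the phosphofructokinase gene emp-3 (-2.59), gpd-1 for glyceraldehyde-3-phosphate dehydrogenase (-2.54) and pgk for phosphoglycerate kinase (-2.48) also fell. cfp (NCU02193), for pyruvate decarboxylase, the entry step to ethanol, had 45.9, 292 and 83.2 CPM without carbon, against 11965 CPM on sucrose. The 3 libraries spread widely, library 2 being the highest, and all were far below sucrose (log2 fold change -6.41, SE 1.77, edgeR adjusted p = 0.032).

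The risers of this list were NCU04728 (log2 fold change 2.61) and NCU06996 (1.08), named hexokinase-1 and hexokinase-2, and the alcohol dehydrogenase genes NCU11325 (1.57) and NCU02850. Whether the proteins named hexokinase act on hexoses was not tested. In the same list emp-1 (log2 fold change -0.87) and NCU00575 (-1.76) were lower and not called. NCU02850 had 30.5, 30.7 and 32.7 CPM without carbon, against 0.791 CPM on sucrose, a rise of 39.5-fold that held in all 10 fits that left out a library. The alcohol dehydrogenase gene with the most counts, adh-1, had 1010, 1888 and 1205 CPM without carbon, against 8459 CPM on sucrose, and missed the threshold (log2 fold change -2.63, edgeR adjusted p = 0.0583). The list had 1 rise in each fit without library 1, 2 or 3, and 3, 4 and 3 falls. In the fits that left out a library, the adjusted p-values went up to 0.104 for cfp, 0.0803 for emp-3, 0.0972 for gpd-1 and 0.0529 for pgk.

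Of 15 genes for starch, glycogen and trehalose, 1 fell and none rose, against 10.4% and 8.39% of all genes. The list's median log2 fold change of -0.31 was 0.20 with library size alone. Of 10 genes for making sugars from acetate or fatty acids, none rose and 3 fell, with 1, 2 and 1 falls in the fits without library 1, 2 or 3. acu-5 (NCU06836), for acetyl-CoA synthetase, fell to 26.7, 44.5 and 23.0 CPM without carbon, against 649 CPM on sucrose (log2 fold change -4.37, SE 0.64, edgeR adjusted p = 0.00329). acu-6, for phosphoenolpyruvate carboxykinase, the first step of gluconeogenesis, had 370, 413 and 305 CPM without carbon, against 30.9 CPM on sucrose, and its log2 fold change of 3.55 had an SE of 2.05 (edgeR adjusted p = 0.245). fbp-1, for fructose bisphosphatase, a later step of the same route, had 132, 157 and 147 CPM without carbon, against 24.0 CPM on sucrose, and missed the threshold (log2 fold change 2.60, SE 0.85, edgeR adjusted p = 0.058). It was called higher with library size alone (adjusted p = 0.035), with limma on FPKM (0.0237) and with DESeq2 (0.00489). The malate synthase gene acu-9 had 264 ± 6.0 CPM (SD, n = 3) without carbon, against 96.3 CPM on sucrose, and was not called (edgeR adjusted p = 0.333). The other falls were both carnitine genes, NCU07263 and NCU08002 (log2 fold changes -2.70 and -1.22), and their calls ended in at least 1 fit that left out a library (adjusted p up to 0.0891 and 0.119).

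With edgeR and TMM, mitochondrial energy genes were called lower and none was called higher. Of 18 genes of the tricarboxylic acid cycle, 5 fell and none rose, against 10.4% and 8.39% of all genes. All 5 falls held in the 10 fits that left out a library. With limma on FPKM the call of tca-15 was lost (adjusted p = 0.0819) and 1 gene of the list was called higher. cit-1 (NCU01692), for citrate synthase, fell to 64.9, 85.7 and 67.9 CPM without carbon, against 936 CPM on sucrose, or 12.9-fold. tca-8 and tca-9, for both chains of succinyl-CoA ligase, fell by 2.47 and 2.13 on the log2 scale, and the malate dehydrogenase gene tca-15 fell by 2.46. Of the aconitase genes, NCU00977 fell to 11.2 ± 2.01 CPM (SD, n = 3) without carbon, against 69.1 CPM on sucrose, while tca-3, the one with more counts, averaged 963 ± 67.5 CPM (SD, n = 3) without carbon, against 1084 CPM on sucrose, and was not called (edgeR adjusted p = 0.822).

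Of 58 genes of the respiratory chain and ATP synthase, 19 fell and none rose, against 10.4% and 8.39% of all genes. The median log2 fold change of -0.70 was -0.19 with library size alone. Of the 58, 10 had log2 fold changes above 0, up to 4.99 for NCU16004, which was not called (edgeR adjusted p = 0.288). cyc-1 (NCU01808), for cytochrome c, fell to 45.9, 65.3 and 34.7 CPM without carbon, against 583 CPM on sucrose, or 12.0-fold. atp-2 and atp-1, for the beta and alpha subunits of ATP synthase, fell to 829 ± 118 and 655 ± 74.2 CPM (SD, n = 3) without carbon, against 3883 and 2681 CPM on sucrose. aac, for the carrier that moves ADP and ATP across the inner membrane, fell to 815, 1561 and 915 CPM without carbon, against 6930 CPM on sucrose. The falls of the chain numbered 6, 11 and 9 without library 1, 2 or 3.

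Of 14 genes for fatty acid synthesis, 6 fell and none rose, against 10.4% and 8.39% of all genes. The median log2 fold change of -2.71 was the lowest of the 33 lists with TMM though not with limma on FPKM (-1.90, against -2.02 for amino acid synthesis). All 6 falls held in the 10 fits that left out a library and in every scaling tried. cel-1 (NCU07308) and cel-2 (NCU07307), for the alpha and beta subunits of fatty acid synthase, carry neighbouring locus numbers. cel-1 had 5.02, 6.70 and 5.19 CPM without carbon, against 604 CPM on sucrose, or 107-fold less. cel-2 had 10.8, 14.1 and 12.8 CPM without carbon, against 774 CPM on sucrose, or 61.5-fold less (log2 fold change -5.94, SE 0.72, edgeR adjusted p = 0.00221). For both subunits the 3 libraries without carbon lay close together and far below sucrose.

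Genes that lengthen or desaturate fatty acids fell with them. The acyl-CoA desaturase gene NCU05259, for the first double bond, had 49.3, 127 and 63.7 CPM without carbon, against 4152 CPM on sucrose, or 52.0-fold less. The delta-12 desaturase gene ods fell to 116 ± 25.9 CPM (SD, n = 3) without carbon, against 1543 CPM on sucrose, and the related desaturase gene NCU09497 fell by 4.44 on the log2 scale. The elongase gene NCU08976 fell to 16.1, 12.1 and 11 CPM without carbon, against 352 CPM on sucrose. Of 51 genes for fatty acid oxidation and the peroxisome, 3 rose and 2 fell, against 8.39% and 10.4% of all genes, with a median log2 fold change of 0.30. With library size alone 8 were called higher and 1 lower (median 0.81), with limma on FPKM 12 and 0, and with DESeq2 8 and 3, while the fits without library 1, 2 or 3 had 2, 2 and 0 rises. The acyl-CoA dehydrogenase gene acd-2 rose to 454, 491 and 490 CPM without carbon, against 66.7 CPM on sucrose, and the peroxisomal gene fox-2, for the middle steps of beta-oxidation, was not called (log2 fold change 0.61, edgeR adjusted p = 0.455). The call of acd-2 was at the threshold without 1 library (adjusted p up to 0.0509).

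Ergosterol, the main fungal membrane sterol, has a pathway of which 11 of 16 genes fell and none rose, with a median log2 fold change of -2.19. The hydroxymethylglutaryl-CoA synthase gene NCU03922, near the start, fell to 99.4, 146 and 86.5 CPM without carbon, against 898 CPM on sucrose. The squalene epoxidase gene NCU08280, the first step that needs oxygen, fell to 15.7, 26 and 17.6 CPM without carbon, against 775 CPM on sucrose. At 39.2-fold this was the largest fall of the pathway (log2 fold change -5.29, SE 1.26, edgeR adjusted p = 0.0186). Further down, the C-4 methylsterol oxidase gene NCU06402 fell 19.7-fold and erg-1 23.9-fold. The smallest falls were those of erg-3, for the C-14 sterol reductase (log2 fold change -1.08), and of the lanosterol synthase gene NCU01119 (-1.06).

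The cytochrome P450 list split along this line. Its 2 fallers were NCU02624, named P450 51, the lanosterol demethylase family, and NCU05278, named P450 61, the sterol C-22 desaturase family. They fell to 61.4 ± 18.5 and 108 ± 14.3 CPM (SD, n = 3) without carbon, against 920 and 618 CPM on sucrose. The other 6 genes called of 16 rose. The largest well counted rise was that of NCU06895, with 379, 356 and 486 CPM without carbon against 2.0 CPM on sucrose. NCU10344 had 297 counts over the 3 libraries without carbon and 0 on sucrose, at least 20.1-fold higher against a floor of 3 counts in the sucrose library. NCU11306, NCU05006 and NCU09419 rose by 2.55, 2.57 and 2.99 on the log2 scale and held in the 10 fits that left out a library. The sterol list had 5, 6 and 5 falls without library 1, 2 or 3. Calls that ended in at least 1 fit that left out a library included NCU08280 (adjusted p up to 0.0697), NCU06402 (up to 0.0875), erg-3 (up to 0.0911) and NCU01119 (up to 0.104), and among the P450 genes NCU06895 (up to 0.0694) and NCU10344 (up to 0.0918).

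**Figure D4:**
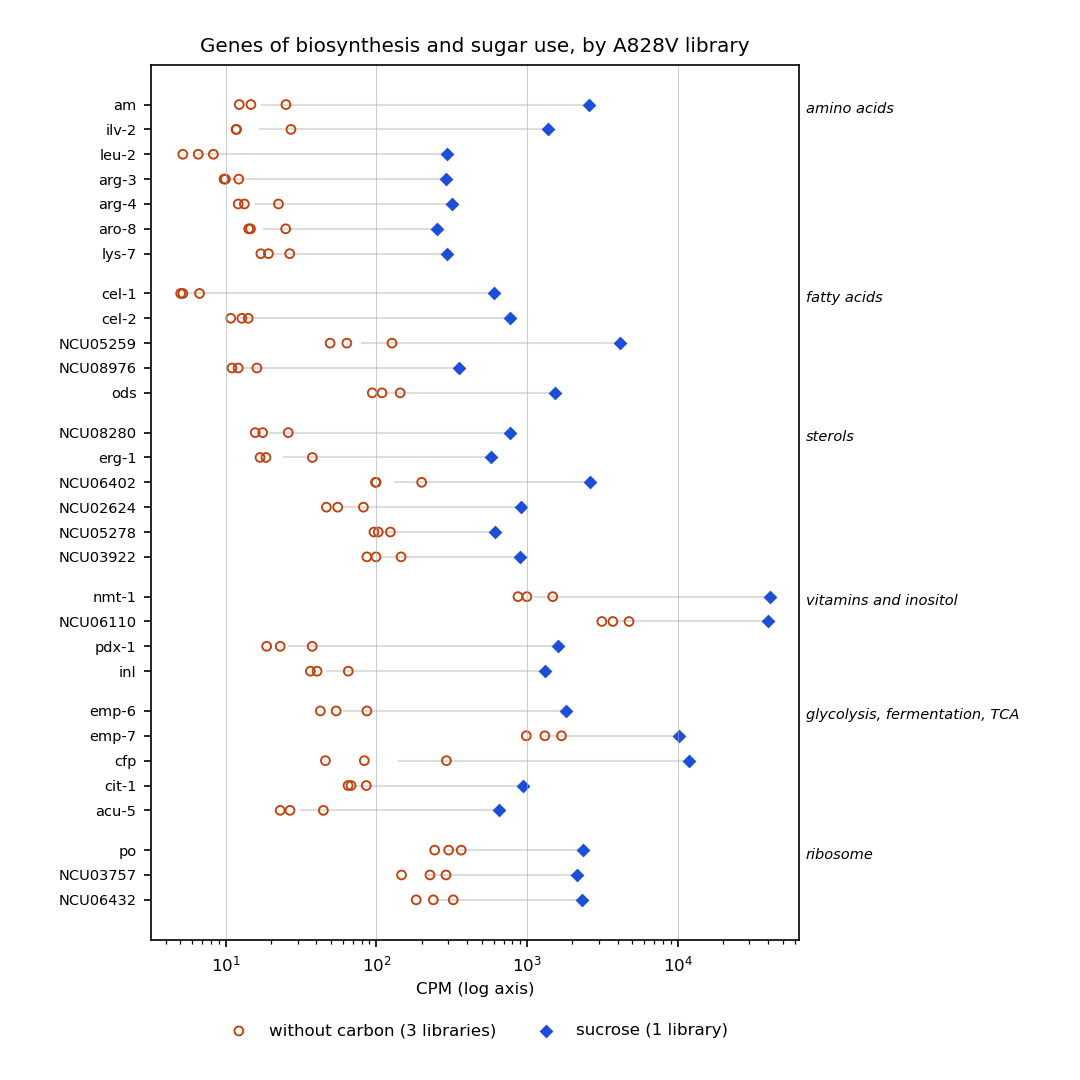
CPM (log axis) of genes for biosynthesis and sugar use in each A828V library, with open circles for the 3 libraries without carbon and filled diamonds for the 1 sucrose library; grey lines join the mean without carbon to sucrose. Every gene shown is lower without carbon, and in most of them the circle nearest to sucrose is library 2.

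Most genes of amino acid synthesis fell. Of 57 genes known by locus symbols such as arg, leu and trp, 43 fell, none rose and 14 were not called, with a median log2 fold change of -2.58. The sucrose library was above all 3 libraries without carbon for 54 of the 57, against 41.3% of all genes. am (NCU01195), for the glutamate dehydrogenase that fixes ammonium with NADPH, had the largest fall of the whole comparison among calls of at least 10 CPM, with 14.7, 25.1 and 12.3 CPM without carbon against 2591 CPM on sucrose. It was 149-fold lower (log2 fold change -7.22, SE 1.26, edgeR adjusted p = 0.00552). gdh-1 (NCU00461), for the NAD-dependent glutamate dehydrogenase that breaks glutamate down, stood the other way round, with 3762, 2648 and 3414 CPM without carbon against 121 CPM on sucrose. Its log2 fold change of 4.76 had an SE of 2.17 and missed the threshold (edgeR adjusted p = 0.15).

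The falls spanned several families of amino acids. In the branched chain family, ilv-2 fell 82.0-fold, to 11.7, 27.1 and 11.8 CPM without carbon against 1384 CPM on sucrose, and leu-2 fell 44.0-fold. In arginine synthesis, arg-3 fell 27.2-fold, to 9.74, 12.2 and 9.95 CPM without carbon against 289 CPM on sucrose, while arg-4 and arg-10 fell 20.1-fold and 17.3-fold. In lysine synthesis lys-7 fell to 21.0 ± 5.03 CPM (SD, n = 3) without carbon, against 293 CPM on sucrose. In the aromatic family aro-8 and aro-3 fell by 3.81 and 3.91 on the log2 scale. eth-1 (NCU02657), for the synthesis of S-adenosylmethionine, fell 28.1-fold. met-8, for methionine synthase and the member with the most counts, was lower but not called, with 1129 ± 199 CPM (SD, n = 3) without carbon, against 4247 CPM on sucrose (edgeR adjusted p = 0.0715). The list had 27, 31 and 28 falls without library 1, 2 or 3, and the calls of ilv-2 and leu-2 ended in at least 1 such fit (adjusted p up to 0.0588 and 0.0905).

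Of 27 genes for nitrogen assimilation, 6 fell and 1 rose, against 10.4% and 8.39% of all genes. With limma on FPKM 3 were called lower and 3 higher, and the fits without library 1, 2 or 3 had 1, 3 and 1 falls. nit-6 and nit-3, for nitrite and nitrate reductase, fell to 88.8 ± 2.87 and 14.9 ± 1.15 CPM (SD, n = 3) without carbon, against 2534 and 119 CPM on sucrose. The glutamine synthetase genes gln-1 and gln-2 fell by 2.23 and 1.95 on the log2 scale. The ammonium transporter gene NCU03257 fell to 51.8, 62.9 and 41.1 CPM without carbon, against 592 CPM on sucrose (log2 fold change -3.51, SE 0.60, edgeR adjusted p = 0.0052). The falls of nit-6, nit-3, gln-1 and gln-2 ended in at least 1 fit that left out a library (adjusted p up to 0.0742, 0.0892, 0.0728 and 0.0969). The list's median of -0.33 became 0.17 with library size alone and 0.32 with limma on FPKM.

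A few genes for peptide uptake and protein breakdown rose by large folds. Of 25 genes for amino acid and peptide uptake, 3 rose and 2 fell, beside 8.39% and 10.4% of all genes. The oligopeptide transporter gene NCU07894 had 922, 632 and 757 CPM without carbon, against 8.18 CPM on sucrose, a rise of 94.2-fold. The small oligopeptide transporter gene NCU03171 rose to 321 ± 18.3 CPM (SD, n = 3) without carbon, against 70.9 CPM on sucrose, while the amino acid permease gene NCU05776 fell to 27.8 ± 0.497 CPM without carbon, against 103 CPM on sucrose. With library size alone 5 were called higher and 2 lower, and with limma on FPKM 7 and 1. Of 85 protease genes, 5 rose and 5 fell, against 8.39% and 10.4% of all genes. Their counts moved with the scaling, to 11 higher and 3 lower with library size alone (median log2 fold change 0.85, against 0.33 with TMM), 20 and 2 with limma on FPKM, and 14 and 6 with DESeq2. NCU07159, named proteinase T, had 2239, 2217 and 1576 CPM without carbon, against 36.0 CPM on sucrose (log2 fold change 5.8, SE 1.31, edgeR adjusted p = 0.0152). NCU00673, named serine protease p2, rose to 4579 ± 340 CPM (SD, n = 3) without carbon, against 979 CPM on sucrose. The fallers included mpp, for the peptidase that trims imported mitochondrial proteins, and the mitochondrial type protease gene NCU05261. All protease genes together held 2.73% to 2.75% of the counts without carbon and 0.83% on sucrose.

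Autophagy, by which cells digest their own content, had 1 call among 8 genes, the rise of apg-1 to 310, 250 and 266 CPM without carbon against 65.1 CPM on sucrose. Of all genes, 8.39% were called higher. All 8 genes had the sucrose library below the 3 others, as did 47.3% of all genes. The call of apg-1 ended in at least 1 fit that left out a library (adjusted p up to 0.0892). Of 33 proteasome genes, 3 fell and none rose, a share near the 10.4% of all genes. There were 0 falls with library size alone and with limma on FPKM, 10 with DESeq2, and 1 in each fit without library 1, 2 or 3.

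Ribosomal protein genes had the largest share of falls of the 33 lists. Of 79 genes for cytosolic ribosomal proteins, 72 fell, 1 rose and 6 were not called, with a median log2 fold change of -2.40. Their share of all counts was 2.39%, 3.54% and 2.80% in libraries 1, 2 and 3 without carbon and 10.8% on sucrose. po (NCU07408), for the stalk protein P0, fell to 244, 366 and 302 CPM without carbon, against 2360 CPM on sucrose (log2 fold change -2.96, SE 0.36, edgeR adjusted p = 0.00221). The gene NCU03757 for L4-A fell 9.74-fold, the gene NCU06432 for S12 9.27-fold and the gene NCU06661 for L22 8.66-fold. Library 2 was the highest without carbon in each of these 4. The exception was NCU04614, named L19, which rose to 146, 134 and 136 CPM without carbon against 50.6 CPM on sucrose. That rise ended in at least 1 fit that left out a library (adjusted p up to 0.0885), whereas the list had 60, 68 and 63 falls without library 1, 2 or 3.

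**Figure D5:**
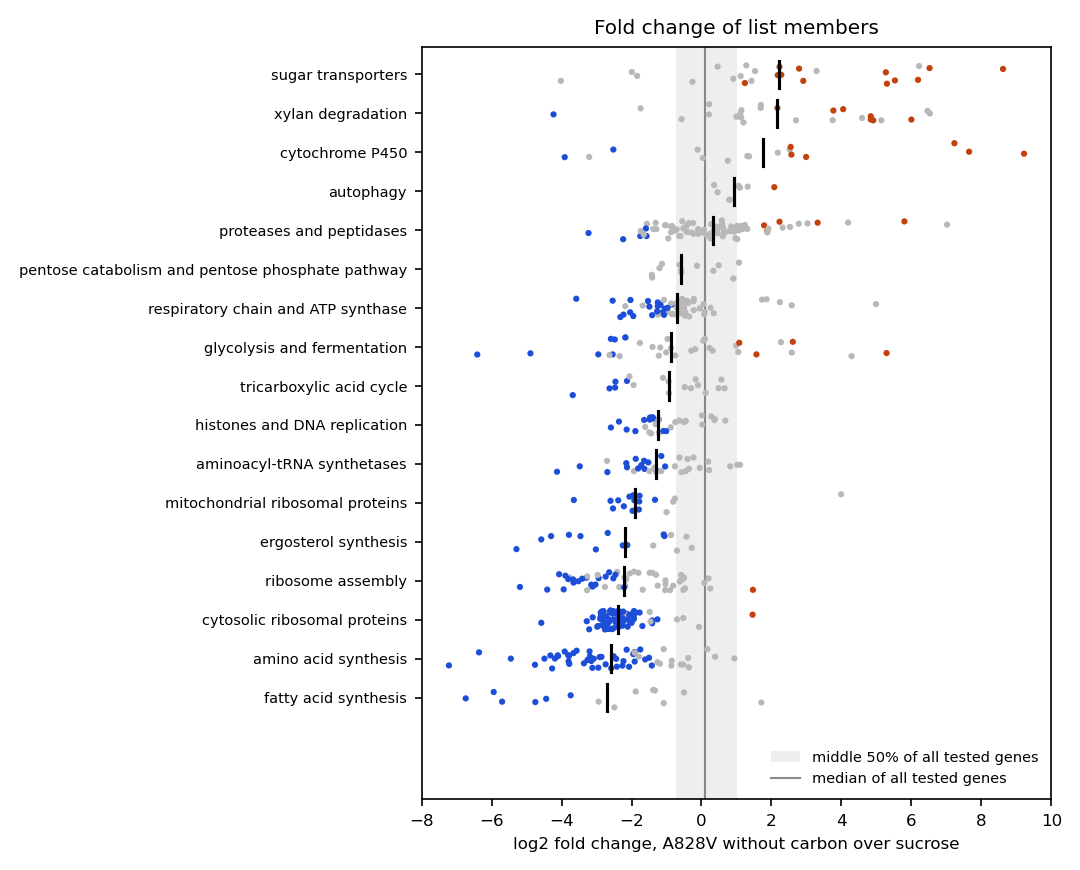
Log2 fold change (A828V without carbon over sucrose) of each tested gene of 17 lists, orange where called higher, blue where called lower and grey where not called, with a black bar at the list's median. The grey band and line mark the middle 50% and the median of all 8557 genes; the cytosolic ribosomal proteins form a narrow group around -2.40, while fatty acid and amino acid synthesis reach below -6.

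The rest of the translation machinery fell less evenly. Of 18 mitochondrial ribosomal protein genes, 14 fell and none rose, led by NCU08120 for DAP3, with 8.38, 11.9 and 9.70 CPM without carbon against 126 CPM on sucrose. Of 56 ribosome assembly genes, 20 fell and 1 rose, against 10.4% and 8.39% of all genes. The list's median of -2.21 was close to that of the ribosomal proteins although a smaller share was called. The fibrillarin gene NCU03702, for methylation of ribosomal RNA, fell to 16.2, 22.3 and 13.8 CPM without carbon, against 258 CPM on sucrose. NCU06272, named RRP5, had 2.56, 1.91 and 2.06 CPM without carbon, against 79.9 CPM on sucrose, or 36.7-fold less. The assembly list had 1, 2 and 1 falls without library 1, 2 or 3, with adjusted p up to 0.0922 for NCU06272, and the mitochondrial list had 9, 12 and 9.

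Of 33 aminoacyl-tRNA synthetase genes, which charge tRNAs with amino acids, 14 fell and none rose, against 10.4% and 8.39% of all genes. The glycyl-tRNA synthetase gene NCU00405 fell to 27.2, 43.7 and 30.2 CPM without carbon, against 377 CPM on sucrose, and the phenylalanyl one, NCU05095, to 32.5, 34.4 and 35.3 CPM without carbon, against 220 CPM on sucrose. Of 39 translation factor genes, 10 fell and 1 rose, beside the same 10.4% and 8.39% of all genes. tef-1, for elongation factor 1 and the factor gene with the most counts, had 7283, 9252 and 8846 CPM without carbon, against 23894 CPM on sucrose, and missed the threshold (log2 fold change -1.50, edgeR adjusted p = 0.0681). The falls without library 1, 2 or 3 numbered 4, 5 and 5 for synthetases and 2, 6 and 3 for factors.

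The genes with the most counts on sucrose serve thiamine synthesis. nmt-1 (NCU09345), for the pyrimidine moiety of thiamine (vitamin B1), had 872, 1483 and 999 CPM without carbon, against 40947 CPM on sucrose, a fall of 36.6-fold (log2 fold change -5.19, SE 1.06, edgeR adjusted p = 0.01). NCU06110, for the thiazole moiety, had 3142, 4761 and 3720 CPM without carbon, against 39648 CPM on sucrose, a fall of 10.2-fold. Together they made up 0.471%, 0.705% and 0.541% of the counts without carbon and 6.49% of those on sucrose. pdx-1, for vitamin B6, fell 61.2-fold, to 18.7, 37.5 and 23.0 CPM without carbon against 1616 CPM on sucrose. inl (NCU06666), for the first step of inositol synthesis, fell 28.0-fold, to 47.3 ± 15.5 CPM (SD, n = 3) without carbon, against 1327 CPM on sucrose. These 4 calls held in the 10 fits that left out a library.

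Other genes of growth and the cell surface fell as well. pma-1 (NCU01680), for the plasma membrane proton pump that powers nutrient uptake, fell to 833, 1257 and 908 CPM without carbon, against 8521 CPM on sucrose (log2 fold change -3.09, SE 0.54, edgeR adjusted p = 0.00556). Of 70 cell wall genes, 13 fell and 3 rose, against 10.4% and 8.39% of all genes, though the median was near 0 (-0.15, and 0.36 with library size alone). The cell wall protein gene ncw-2 fell 24.4-fold, to 64.6 ± 6.64 CPM (SD, n = 3) without carbon, against 1576 CPM on sucrose, and acw-3 fell 18.1-fold. gh16-1 (NCU01353), named a mixed-linked glucanase and outside the list, fell to 48.0, 69.3 and 47.6 CPM without carbon, against 1359 CPM on sucrose, with an edgeR adjusted p of 0.000734. Of 31 genes for histones and DNA replication, 13 fell and none rose, among them hH2A (log2 fold change -2.59) and hH2B (-2.36). Of 40 chaperone genes, 8 fell and none rose, beside the same shares of all genes (10.4% and 8.39%). hsp70-1 fell to 128, 264 and 144 CPM without carbon, against 2049 CPM on sucrose, and hsp60 fell 22.8-fold, a call that ended in at least 1 fit that left out a library (adjusted p up to 0.0575). In fits without library 1, 2 or 3 the falls were 9, 10 and 10 for the cell wall, 4, 5 and 4 for histones and replication, and 3, 4 and 3 for chaperones.

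The largest rises were in genes that were close to silent on sucrose. The hypothetical gene NCU08037 had 82.1, 48.1 and 92.9 CPM without carbon and 0 counts on sucrose, at least 282-fold higher against a floor of 3 counts in the sucrose library. That bound holds for the counts only, since the deposited FPKM of NCU08037 were 82.3, 56 and 107 without carbon and 0.329 on sucrose. NCU09184, for indoleamine 2,3-dioxygenase, which opens the indole ring of tryptophan, had 253, 210 and 224 CPM without carbon, against 0.352 CPM on sucrose, or 651-fold more (log2 fold change 9.31, SE 1.85, edgeR adjusted p = 0.00897). The sterol esterase gene NCU09575 rose 195-fold, to 1012, 982 and 986 CPM without carbon against 5.10 CPM on sucrose. The choline dehydrogenase gene NCU01853 rose to 137 ± 34.4 CPM (SD, n = 3) without carbon, against 0.352 CPM on sucrose, a call that ended in at least 1 fit that left out a library (adjusted p up to 0.0509). NCU05767, a zinc cluster regulator named PRO1A, was read 2796 times without carbon and once on sucrose, a depth-scaled ratio of 560 with an exact 95% interval of 100 to 22120. NCU09231 (3457 counts without carbon, 1 on sucrose) and the ABC transporter gene NCU00290 (2629 and 3) had ratios of 692 and 175, with exact 95% intervals of 124 to 27347 and 60 to 851. The hypothetical genes NCU09717, NCU09685 and NCU07751 had 1277, 921 and 593 counts over the 3 libraries without carbon and 0 on sucrose, at least 85.6-fold, 62.2-fold and 40.1-fold higher, and the call of NCU09685 ended in at least 1 fit that left out a library (adjusted p up to 0.069). Across the comparison, 42 called genes had 3 counts or fewer on sucrose.

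Outside the pathways above, the largest falls were in genes of little known function. NCU07257, for a protein with an F-box domain, had 18.2, 44.5 and 19.1 CPM without carbon, against 3661 CPM on sucrose. NCU06940 had 6.62, 10.6 and 9.57 CPM without carbon, against 1157 CPM on sucrose, and NCU01546, without a product name, had 14.3, 66.2 and 23.2 CPM without carbon, against 2203 CPM on sucrose. They were 134-fold, 129.6-fold and 63.8-fold lower, and each call ended in at least 1 fit that left out a library (adjusted p up to 0.144, 0.14 and 0.103). The mitochondrial carrier gene NCU03561 and the hydrolase gene NCU02904 fell 65.8-fold and 47.7-fold, and both calls held in the 10 such fits. Several of the genes with the most counts were not called: ccg-16 averaged 6254 CPM without carbon and 5382 CPM on sucrose, NCU05498 4641 CPM without carbon and 5034 CPM on sucrose, and ccg-15 3750 CPM without carbon and 7681 CPM on sucrose. The hypothetical gene NCU10040 had 7226, 5921 and 7075 CPM without carbon, against 271 CPM on sucrose, with a log2 fold change of 4.63 and an SE of 2.20 (edgeR adjusted p = 0.165).

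Markers of asexual spores and of sexual tissue were read beside those of hyphae. Of 20 conidiation genes, 3 rose and 1 fell, against 8.39% and 10.4% of all genes. The list's share of counts was 2.71%, 2.66% and 3.0% in libraries 1, 2 and 3 without carbon and 0.539% on sucrose. Most of that share without carbon was the gene eas alone, with 1.96%, 1.99% and 2.27%, against 0.0366% on sucrose. con-6 had 1013, 1215 and 1328 CPM without carbon, against 2.29 CPM on sucrose, and con-8 1918, 1613 and 2047 CPM without carbon, against 93.0 CPM on sucrose. eas, for the hydrophobin that coats conidia, held the most counts of any gene without carbon, with 16714, 17663 and 19834 CPM against 454 CPM on sucrose, and missed the threshold (log2 fold change 5.31, SE 1.92, edgeR adjusted p = 0.0794). The regulator genes of conidiation, fl and acon-3, were not called (edgeR adjusted p = 0.117 and 0.103), and acon-3 had 71.9 CPM in library 2 against 20.1 and 22.5 in libraries 1 and 3. con-10 rose 15.7-fold, to 47 ± 8.9 CPM (SD, n = 3) without carbon, against 2.99 CPM on sucrose, and its call ended in at least 1 fit that left out a library (adjusted p up to 0.0599). con-13 had 2.06, 2.44 and 3.57 CPM without carbon, against 0.967 CPM on sucrose. ccg-6 fell, to 1557 ± 286 CPM (SD, n = 3) without carbon, against 4849 CPM on sucrose. The hyphal marker hex-1, for the Woronin body protein, averaged 2109 ± 196 CPM (SD, n = 3) without carbon, against 5734 CPM on sucrose (edgeR adjusted p = 0.059), and so, another gene of hyphae, needed for their fusion, averaged 137 ± 16.6 CPM (SD, n = 3) without carbon, against 137 CPM on sucrose. In these bulk samples a change in the share of spore forming cells and a change per cell cannot be told apart.

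Of 12 genes for mating and sexual development, 4 rose and 1 fell, against 8.39% and 10.4% of all genes. app (NCU04533), named for abundance in perithecia, the fruiting bodies, had 471, 1205 and 387 CPM without carbon, against 1.23 CPM on sucrose. The spread was wide, with library 2 the highest, and no library overlapped sucrose (log2 fold change 9.12, SE 2.42, edgeR adjusted p = 0.0284). Of the ascus development genes, asd-3 rose to 25.5 ± 4.59 CPM (SD, n = 3) without carbon, against 4.57 CPM on sucrose, and asd-1 fell to 11.3 ± 2.67 CPM without carbon, against 157 CPM on sucrose. The summed share of this list was 0.0664%, 0.146% and 0.0555% of counts in libraries 1, 2 and 3 without carbon and 0.0171% on sucrose. Most of that share without carbon was app alone, with 9389, 25180 and 6191 counts, against 14 on sucrose. The summed share thus does not describe the other genes of the list. Of the pheromone genes, mfa-1 and ccg-4 were low in both media, with 12.3 ± 0.17 and 1.82 ± 1.34 CPM (SD, n = 3) without carbon, against 4.92 and 0.44 CPM on sucrose. The pheromone receptor gene pre-2 rose to 4.04 ± 0.79 CPM (SD, n = 3) without carbon, against 0.615 CPM on sucrose, a call that ended in at least 1 fit that left out a library (adjusted p up to 0.077). poi-2 and fmf-1 were not called, with 0.353 and 7.84 CPM on average without carbon, against 1.06 and 11.3 CPM on sucrose. The list had 1 rise and 1 fall in each fit without library 1, 2 or 3, with adjusted p up to 0.0546 for app.

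Light and clock genes rose in 3 of 22 cases, among them ccg-1, and none fell, against 8.39% and 10.4% of all genes. nop-1, for an opsin, rose to 179, 211 and 229 CPM without carbon, against 7.65 CPM on sucrose, and al-3, for a step of carotenoid synthesis, to 340, 342 and 337 CPM without carbon, against 44.9 CPM on sucrose. al-1 and vvd were higher in all 3 libraries without carbon and were not called (log2 fold changes 1.20 and 1.41, edgeR adjusted p = 0.35 and 0.125). Of 25 genes against oxidative stress, 2 rose and 4 fell, beside the same 8.39% and 10.4% of all genes. The list's median log2 fold change of -0.49 was 0.02 with library size alone and with limma on FPKM. cat-2, for a peroxidase and catalase, rose to 1382, 1481 and 1769 CPM without carbon, against 263 CPM on sucrose, while cat-3, for another catalase, fell to 55.7, 45.9 and 70.5 CPM without carbon, against 691 CPM on sucrose. The iron superoxide dismutase gene NCU07386 fell 6.05-fold, and cat-1 and sod-1 were not called (edgeR adjusted p = 0.769 and 0.233).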

How the data were processed

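RNA-seq libraries of Neurospora crassa were analysed from the deposited raw counts of 9758 genes, 1 table per library. Per the submitters' processing notes, TopHat2 2.04, HTSeq 0.6, Cufflinks 2.02 and Cuffdiff 2.02 were used; for settings, strand and genome build, the sources used here give nothing. Where counting did not use strand, overlapping genes cannot be told apart. Each table ends in 5 entries that name no gene (8.97% to 16.87% of the total in the A828V libraries), left out of library sizes and tests. The deposited FPKM tables give the authors' values per library, used only for an alternative. Product names come from 1 of 2 deposited tables of comparisons, whose values, including 12 columns of single libraries, were not used. Coordinates follow the deposited FPKM tables with positions counted from 1, on contigs named as in assembly NC12, and symbols are those of RefSeq for NC12.

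Groups came from the labels. The count test was that of edgeR 4.0.16 under R 4.3.3 (filterByExpr with a count minimum of 10, TMM, quasi-likelihood F-test, 2-sided, Benjamini-Hochberg adjustment over the 8557 genes tested, calls at an adjusted p under 0.05). The fit took all 11 libraries, each group having its own coefficient, with 7 residual degrees of freedom and a common biological coefficient of variation of 0.411. Each SE printed is the absolute log2 fold change divided by the square root of the F statistic, so it was derived from the test. Since no label names separate cultures, p-values reflect the spread among these libraries alone, and that spread may be technical. Alternatives were RLE factors, library size alone, DESeq2 1.42.0, no filter, the 4 A828V libraries alone, limma 3.58.1 on log2(FPKM + 1), and leaving out each library in turn. Intervals and floors cover counting error only.

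Genes and lists were chosen with earlier results of these data known. The 33 lists are matches to product names and symbols, less 76 entries whose product gives another function. Named genes were xlr-1, ccg-1, his-3 and mating type genes, the 10 largest rises and falls among calls of at least 10 CPM (over all genes and over genes with a name), list members by fold, level or textbook role, and the 10 genes with most counts per group. NCU00450, NCU00988, gh16-1, aac, eth-1, inl and fbp-1 lie outside this rule or these lists and were added after their values were seen. Promoter sequences were not analysed here.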

Additional observations from a re-analysis of the deposited data

How the results depend on the processing

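No paired analysis was possible because the sucrose library carries no replicate number. The sucrose group is 1 library, so its own spread was not measured. The counts of genes higher and lower without carbon, 718 and 894 in edgeR, became 1115 and 449 with library size alone, 1204 and 1153 with DESeq2, 2676 and 2590 with the 4 A828V libraries alone, which have 2 residual degrees of freedom, and 1425 and 428 with limma on log2(FPKM + 1). RLE factors (697 and 920) and no filter (659 and 857) stayed within 1.5 times. Leaving out 1 library gave 304 to 918 higher and 409 to 1286 lower; the lowest counts came without a library without carbon. The median of all genes moved by 0.51 with library size alone and by 0.32 with limma on FPKM. Of the 718 rises 687, but of the 894 falls only 389, held in edgeR with RLE factors, with library size alone and with limma on FPKM. Among genes named as falls, the call was lost with library size alone or limma for NCU01119, gpd-1, atp-1, cpc-1, gln-2, tca-15, nit-3, NCU06940, NCU07257, NCU07263, NCU07351, NCU07550, pgk, NCU07974, NCU08002, erg-3 and nit-2. The rise of NCU06996 lost its call with RLE factors. Among genes named as not called, limma on FPKM called NCU00450, gdh-1, NCU00891, NCU02343, vvd, gh11-2, acon-3, clr-2, eas, fbp-1 and xyk-1 higher. DESeq2 called adh-1, tef-1, met-8 and hex-1 lower, and NCU00450, NCU02343, gh11-2, acon-3, clr-2, fbp-1 and NCU10040 higher. Library size alone called NCU00450, NCU02343, vvd, clr-2 and fbp-1 higher. The fit of the 4 A828V libraries alone, which had more calls in both directions, is left out of these lists. Under limma on FPKM, 5 called genes had the other sign (NCU02555, NCU03296, NCU04131, NCU04344 and NCU09999), and the cause was not tested. tca-3, not called, had a log2 fold change of -0.17, against 0.34 with library size alone and 0.72 with limma. Other uncalled genes changed sign too: NCU05498 (-0.12 with TMM) to 0.39 and 0.42, so (0.00) to 0.51 and 0.58 under the same settings and to -0.09 to 0.1 without 1 library, and fmf-1 (-0.52) to 0.13 with limma.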
